A study of Homo sapiens with 24 samples.

Results

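The arrays described here are the 6 that compare FMR4 siRNA with CTRL siRNA in HEK293T cells at 24 h after transfection, chosen by their titles from the 24 arrays of the series, with 3 arrays in each group. HEK293T is a human embryonic kidney line that carries the SV40 large T antigen. Both groups received 40 nM siRNA, directed against the long non-coding RNA FMR4 in one and a commercial negative control siRNA in the other, with a lipid reagent. Each array holds 1 biological replicate pooled from 3 technical ones. Whether the replicates were grown as separate cultures is not stated, so p-values measure a spread between arrays that may be technical. Further arrays give context: both siRNAs at 6 h, and FMR4 pcDNA3.1 and empty CTRL pcDNA3.1 (0.5 µg plasmid, without siRNA) at 6 and 24 h. They also enter the fit, in which all 24 arrays share 1 estimate of spread for each gene. SEs and p-values at 24 h therefore also draw on the spread within the other conditions. All groups are the same cell line, and the FMR4 siRNA was a single siRNA, so a loss of FMR4 and other effects of that siRNA cannot be told apart.

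FMR4 is transcribed from the *FMR1* locus, antisense to *FMR1*, from the promoter region that both genes share. *FMR1* encodes the RNA-binding protein FMRP, and expansion of a repeat in its 5′ end silences the locus in fragile X syndrome. An siRNA is loaded into an Argonaute protein, which cleaves RNA that it matches, and long non-coding RNAs are studied for effects on genes far from their own locus.

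The values are log2 expression, 1 probe set for each of 18417 genes, so that a difference of 1 is 2-fold. The medians of the 24 arrays lay between 7.43 and 7.53. Markers of the HEK293T state (16 genes) had a median level of 10.27 and were all above the floor of dim probe sets at 6, while markers of blood, endothelium, fibroblast and muscle, liver and gut, and glia and neurons (56 genes) had list medians of 6.16 to 6.83. None of these 56 was called between the siRNAs, and 1 of the 16 HEK293T markers was, the neurofilament gene *NEFM*, at 10.21, 10.23 and 9.99 with FMR4 siRNA, against 9.49, 9.26 and 9.39 with CTRL siRNA without overlap (0.76, SE 0.127, adjusted p = 0.000385). No named probe set carried the symbol FMR4, so its knockdown was not read. *FMR1* read 10.74, 10.75 and 10.51 with FMR4 siRNA, against 10.57, 10.53 and 10.51 with CTRL siRNA. These overlapped, and its difference of 0.13 (SE 0.06, adjusted p = 0.291) did not pass. Several genes measured elsewhere by PCR were looked at as well. The study read *MBD4* after repeated siRNA transfection over a longer time and in differentiating neural precursor cells. It read *YOD1*, *GNG12* and *RRM2* in neurospheres with FMR4 overexpressed, so time, cells or treatment differ from those here. On the arrays of 24 h the differences of these genes missed the threshold, with 0.07 for *MBD4* (adjusted p = 0.643), a DNA glycosylase that binds methylated CpG, 0.15 for *YOD1* (adjusted p = 0.234), 0.14 for *GNG12* (adjusted p = 0.251) and 0.13 for *RRM2* (adjusted p = 0.405). For *RRM2*, *YOD1* and *GNG12* all 3 FMR4 siRNA arrays nonetheless lay above all 3 CTRL siRNA arrays, as happened in one direction or the other in 22.2% of all genes. *MALAT1* and *GAPDH*, reference transcripts, differed by 0.08 and 0.001.

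With FMR4 siRNA 1083 genes differed from CTRL siRNA at an adjusted p under 0.05 in limma, which is 5.88% of those tested, and 632 (3.43%) were higher and 451 (2.45%) lower. Most differences were small. The median size was 0.34 on the log2 scale among the higher genes and 0.36 among the lower ones, and 275 of the higher and 159 of the lower were under 1.25-fold. At least 1.5-fold was reached by 59 higher and 52 lower genes, and over 2-fold by 5 and 3. The 2 groups of arrays did not overlap in 624 of the higher and 446 of the lower genes, against 22.2% over all genes. These genes were called by the difference between the same arrays, so a lack of overlap in them is no separate evidence. RNA was taken from whole cultures, so a gene expressed in fewer cells and one with less RNA per cell cannot be told apart. The share of genes called depended on level: with the genes split by mean level into 4 groups of equal size, it was 0.565% in the lowest, 3.48% and 9.01% in the next and 10.5% in the highest. Of the 1083 genes, 492 were called in every one of 15 other settings (271 higher, 221 lower), and 521 without any 1 of the 6 arrays. A fit to the 6 compared arrays alone called 792 genes, and 691 of them were among the 1083 (63.8%). Among the arrays left out in turn, the count moved most without CTRL siRNA replicate 2, when 653 genes were called.

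**Figure D1:**
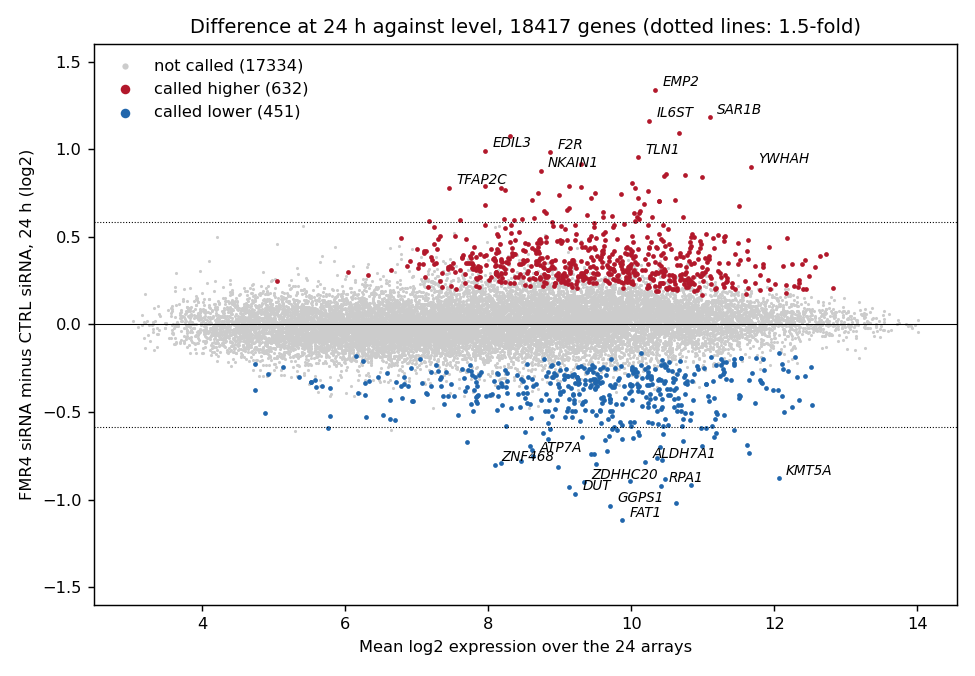
Each point is a gene, with its mean log2 expression over the 24 arrays on the x axis and its log2 difference, FMR4 siRNA minus CTRL siRNA at 24 h, on the y axis. Red points are the 632 genes called higher, blue points the 451 called lower, and most of both lie inside the dotted lines that mark 1.5-fold.

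After *EMP2*, *SAR1B*, *IL6ST*, *SCAMP1* and *SPOPL*, which led the rises with differences of 1.34 to 1.08, came genes of several kinds, of which those of the cell surface, adhesion and signalling are given first. *EDIL3*, a secreted integrin ligand, read 7.95, 8.04 and 7.61 with FMR4 siRNA, against 6.88, 6.87 and 6.88 with CTRL siRNA. *F2R*, the thrombin receptor PAR1, read 9.14, 9.11 and 8.99 with FMR4 siRNA, against 8.23, 8.04 and 8.02 with CTRL siRNA. No array of one group reached the other in either gene, although *EDIL3* varied more among the FMR4 siRNA arrays, and the differences were 0.99 (SE 0.219, adjusted p = 0.00658) and 0.98 (SE 0.069, adjusted p = 3.52e-09). *TLN1*, talin 1, which couples integrins to actin, read 10.34, 10.43 and 10.48 with FMR4 siRNA, against 9.52, 9.43 and 9.45 with CTRL siRNA. *RDX*, radixin, which links actin to the plasma membrane, read 11.05, 11.07 and 10.89 with FMR4 siRNA, against 10.24, 10.06 and 10.15 with CTRL siRNA. Both were higher on every FMR4 siRNA array, by 0.95 (SE 0.074, adjusted p = 1.28e-08) for *TLN1* and 0.85 (SE 0.062, adjusted p = 5.05e-09) for *RDX*. *YWHAH*, the 14-3-3 eta adaptor of phosphorylated proteins, read 11.91, 11.88 and 11.85 with FMR4 siRNA, against 11.02, 10.96 and 10.96 with CTRL siRNA. Its arrays were among the tightest of the leading genes, and its difference of 0.90 (SE 0.054, adjusted p = 7.47e-10) had the lowest adjusted p of the 20 largest rises. *NKAIN1*, which interacts with the sodium pump, and *ATP1B1*, a beta subunit of that pump, rose by 0.88 and 0.81, and *SLC41A1*, a magnesium transporter, by 0.85.

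RNA-handling genes were within the same range of differences. *LSM14A*, a component of processing bodies, read 10.78, 10.82 and 10.67 with FMR4 siRNA, against 9.97, 9.88 and 9.85 with CTRL siRNA. *SNRNP27*, of the spliceosomal tri-snRNP, read 11.15, 11.12 and 11.03 with FMR4 siRNA, against 10.35, 10.20 and 10.23 with CTRL siRNA. *THG1L*, which adds a guanosine to histidine tRNA, read 9.57, 9.63 and 9.37 with FMR4 siRNA, against 8.80, 8.43 and 8.59 with CTRL siRNA. The FMR4 siRNA arrays were the higher in all 3 genes with no overlap, and the differences were 0.86 (SE 0.06, adjusted p = 3.49e-09), 0.84 (SE 0.058, adjusted p = 3.49e-09) and 0.92 (SE 0.085, adjusted p = 2.14e-07). The remaining rises among the first 20 were *KLHL2* (0.79), a substrate adaptor of a cullin 3 ligase, *STEAP3* (0.79), an endosomal iron reductase, *ANKRD46* (0.79) and *TFAP2C* (0.78), the transcription factor AP-2 gamma.

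Among the largest falls after *FAT1*, *GGPS1*, *CEP15*, *DUT* and *SHMT1* were genes of DNA metabolism, membranes and chromatin. *RPA1*, the large subunit of the complex that coats single-stranded DNA, read 9.79, 9.83 and 9.69 with FMR4 siRNA, against 10.71, 10.71 and 10.64 with CTRL siRNA. *ARHGAP1*, which turns off the GTPase *CDC42*, read 10.27, 10.33 and 10.34 with FMR4 siRNA, against 11.23, 11.21 and 11.24 with CTRL siRNA. Both groups were tight and far apart, and the differences of −0.92 (SE 0.052, adjusted p = 4.21e-10) and −0.92 (SE 0.061, adjusted p = 2.28e-09) had the lowest and the next lowest adjusted p of the 20 largest falls. *VMA21*, an assembly factor of the vacuolar proton pump whose gene lies in Xq28, read 9.32, 9.42 and 9.10 with FMR4 siRNA, against 10.11, 10.21 and 10.18 with CTRL siRNA. *ATP7A*, a copper transporter of the Golgi, read 8.09, 8.26 and 7.87 with FMR4 siRNA, against 8.82, 8.75 and 8.89 with CTRL siRNA. *NEU1*, the lysosomal sialidase, read 9.55, 9.83 and 9.73 with FMR4 siRNA, against 10.45, 10.43 and 10.52 with CTRL siRNA. These genes of acid compartments and the Golgi were lower on every FMR4 siRNA array, with differences of −0.89 (SE 0.075, adjusted p = 4.41e-08) for *VMA21*, −0.75 (SE 0.074, adjusted p = 4.47e-07) for *ATP7A* and −0.76 (SE 0.082, adjusted p = 1.65e-06) for *NEU1*. *ERGIC1*, which cycles between the endoplasmic reticulum and Golgi, read 9.77, 9.79 and 9.78 with FMR4 siRNA, against 10.69, 10.71 and 10.59 with CTRL siRNA. *ZDHHC20*, a palmitoyltransferase, read 8.58, 8.20 and 8.16 with FMR4 siRNA, against 9.16, 9.27 and 9.21 with CTRL siRNA. The FMR4 siRNA arrays were below all CTRL siRNA arrays in both, with *ZDHHC20* highest in replicate 1, and the differences were −0.88 (SE 0.061, adjusted p = 3.49e-09) and −0.90 (SE 0.088, adjusted p = 4.11e-07).

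*KMT5A*, which places the first methyl group on lysine 20 of histone H4, read 11.37, 11.48 and 11.35 with FMR4 siRNA, against 12.30, 12.29 and 12.24 with CTRL siRNA, so that the difference was −0.88 (SE 0.072, adjusted p = 3.34e-08). *APAF1*, the scaffold of the apoptosome, read 7.67, 7.79 and 7.34 with FMR4 siRNA, against 8.42, 8.34 and 8.42 with CTRL siRNA, so that the difference was −0.79 (SE 0.097, adjusted p = 1e-05). The arrays of the 2 groups stayed apart in both genes, with *APAF1* lowest in FMR4 siRNA replicate 3. Further falls of this rank were *PLCB1* (−0.81), a phospholipase C that acts after G proteins, *ZNF468* (−0.80), the myotubularin *MTMR14* (−0.80), the aldehyde dehydrogenase *ALDH7A1* (−0.79), *KIAA1107* (−0.78) and *DESI2* (−0.77). All of the 20 largest rises and 20 largest falls were called in each of the 15 other settings. Probe sets of genes with near-identical copies may also have read those copies, which was not tested.

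**Figure D2:**
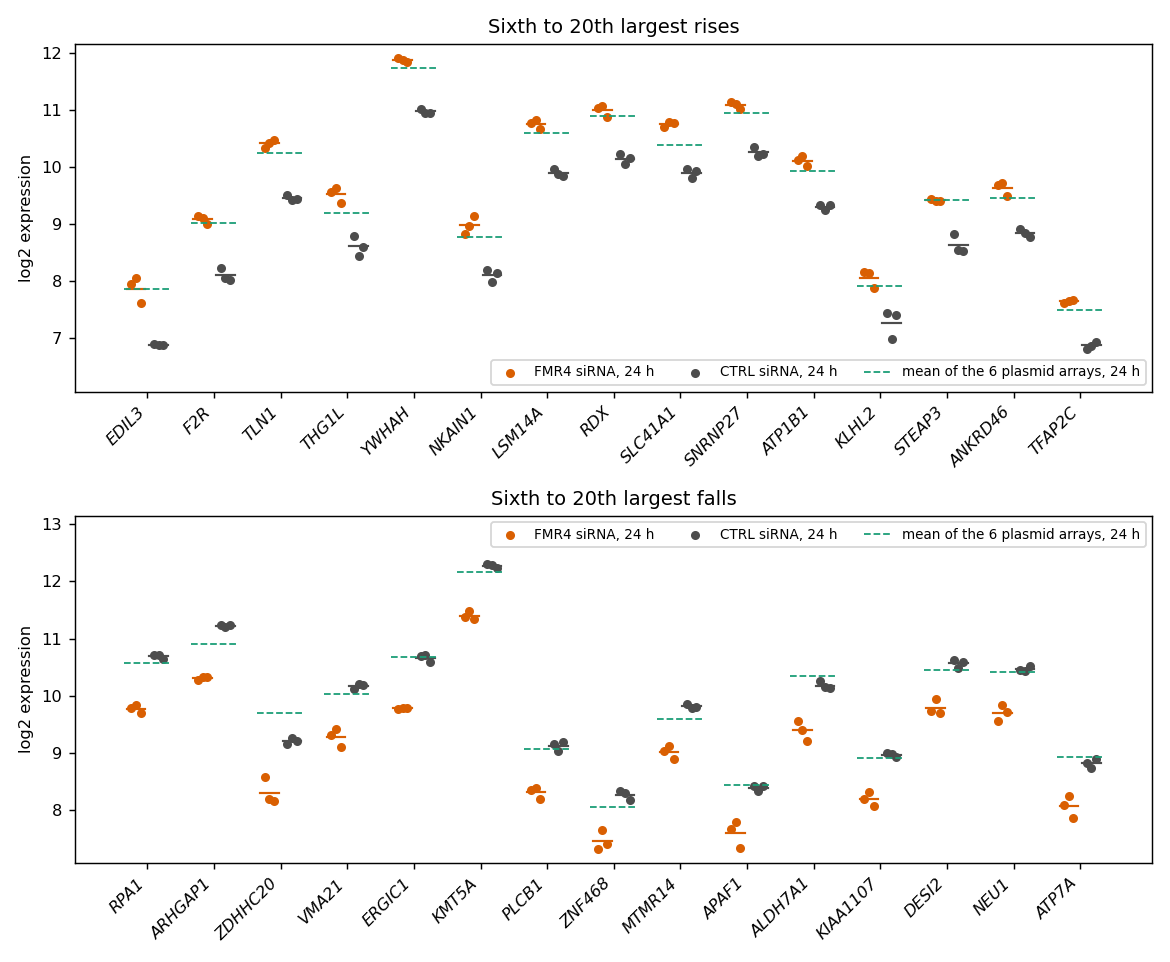
Log2 expression at 24 h (y axis) of the genes ranked after the first 5 among the 20 largest rises (upper panel) and falls (lower panel). Points are single arrays of FMR4 siRNA (orange, left) and CTRL siRNA (grey, right), short bars their means and green dashed lines the mean of the 6 plasmid arrays, which runs near the FMR4 siRNA points for most rises and near the CTRL siRNA points for most falls.

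The plasmid arrays of 24 h, which received neither siRNA, placed the 2 kinds of change differently. They had plasmid DNA and another transfection reagent, which makes them no neutral baseline. Of the 59 genes at least 1.5-fold higher with FMR4 siRNA, 50 had the CTRL siRNA mean farther from the plasmid mean, and 9 the FMR4 siRNA mean. Of the 52 lower genes of that size, 47 had the FMR4 siRNA mean farther and 5 the CTRL siRNA mean. The median of the 59 higher genes, relative to the plasmid arrays, was 0.16, 0.24 and 0.10 on the FMR4 siRNA arrays, against −0.53, −0.65 and −0.59 on the CTRL siRNA arrays. For the 52 lower genes it was −0.65, −0.54 and −0.73 on the FMR4 siRNA arrays, against 0.08, 0.07 and 0.08 on the CTRL siRNA arrays. Relative to the plasmid arrays, most large rises were thus genes read low with CTRL siRNA, and most large falls genes read low with FMR4 siRNA. *F2R* stood 0.06 from the plasmid mean with FMR4 siRNA and −0.92 with CTRL siRNA, and *RPA1* −0.80 with FMR4 siRNA and 0.12 with CTRL siRNA. At 6 h the same 59 genes had a median of 0.00 with FMR4 siRNA and −0.20 with CTRL siRNA relative to the plasmid arrays of 6 h, and the 52 genes −0.23 with FMR4 siRNA and −0.06 with CTRL siRNA. Among all called genes the CTRL siRNA mean was the farther in 352 of 632 higher and 85 of 451 lower genes, against 43.7% of all genes. These genes were chosen by the difference between the siRNAs, so the counts are a description without a test, and the part that each siRNA or reagent had in them was not tested.

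In the 9 other large rises, and in 280 of all 632 higher genes, the FMR4 siRNA mean was the farther from the plasmid mean. *DNAJB9*, an endoplasmic reticulum chaperone, read 9.44, 9.76 and 9.53 with FMR4 siRNA, against 9.05, 8.51 and 9.23 with CTRL siRNA, and *USP31*, a ubiquitin protease, read 10.33, 10.53 and 10.48 with FMR4 siRNA, against 9.87, 9.63 and 9.90 with CTRL siRNA. The groups did not overlap in either, although CTRL siRNA replicate 2 was the lowest array in both. *DNAJB9* stood 1.27 above the plasmid mean with FMR4 siRNA and 0.63 above it with CTRL siRNA, and *USP31* 0.57 with FMR4 siRNA and −0.08 with CTRL siRNA. Their differences between the siRNAs were 0.65 (SE 0.141, adjusted p = 0.00574) and 0.65 (SE 0.077, adjusted p = 5.98e-06), and that of *DNAJB9* missed the threshold without CTRL siRNA replicate 2 (adjusted p = 0.0595).

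**Figure D3:**
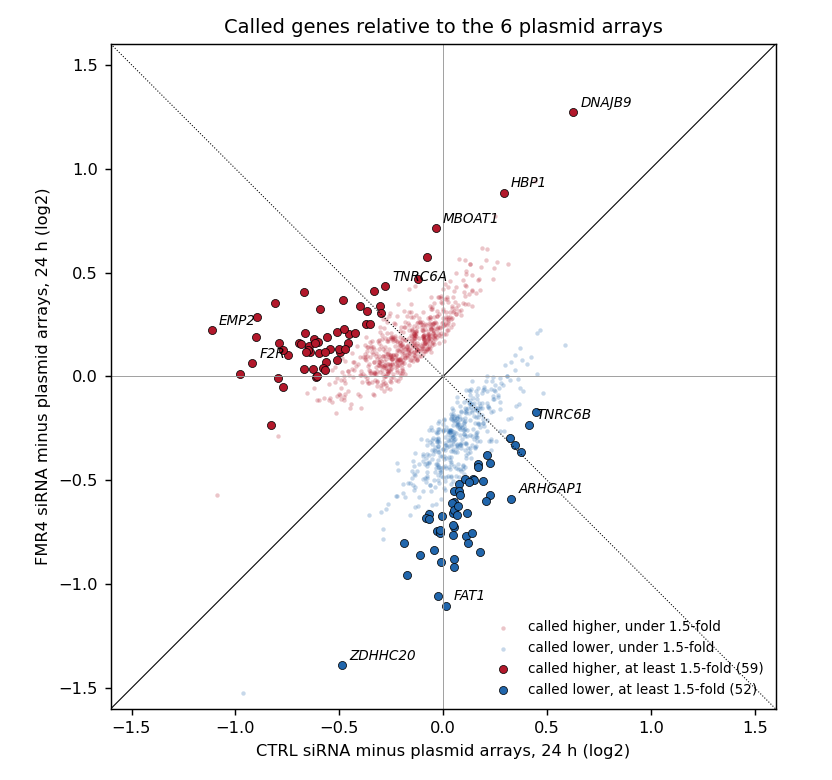
Each point is a gene called at 24 h, placed by the log2 distance of its CTRL siRNA mean (x axis) and its FMR4 siRNA mean (y axis) from the mean of the 6 plasmid arrays of 24 h. On the solid diagonal the siRNAs are equal and on the dotted one equally far from the plasmid arrays and the outlined points are the 59 higher (red) and 52 lower (blue) genes of at least 1.5-fold.

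Beyond single genes, 64 lists of pathways, complexes and families were counted, which with 6 lists of markers held 2776 measured genes, of which 183 were called higher and 93 lower (9.94%). List genes were mostly well expressed: 80.2% were above the median level of all genes, where 9.74% of genes were called. Calls in both directions were found in 38 lists. Retromer and ESCRT genes (29 measured), base excision and mismatch repair genes (27) and immediate-early genes (27) had no call in limma, with 3, 4 and 7 genes at an unadjusted p under 0.05. Median differences of the lists are read against a median of 0.004 over all genes, and that of the immediate-early genes, 0.148, was the highest of any list.

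Of 49 cytokine receptor and JAK-STAT genes, which carry signals of interleukins to the nucleus, 7 were higher and none lower, with a list median of 0.081. *IL10RB*, a receptor chain of the interleukin-10 family, read 9.48, 9.48 and 9.17 with FMR4 siRNA, against 8.80, 8.67 and 8.67 with CTRL siRNA. *IL4R*, the interleukin-4 receptor, read 8.24, 8.40 and 8.29 with FMR4 siRNA, against 7.98, 7.83 and 7.99 with CTRL siRNA. *IL6R*, the interleukin-6 receptor that pairs with the gp130 protein of *IL6ST*, averaged 7.96 ± 0.04 with FMR4 siRNA, against 7.65 ± 0.03 with CTRL siRNA (SD, n = 3 each). In each the FMR4 siRNA arrays were all above the CTRL siRNA arrays, with differences of 0.66 (SE 0.09, adjusted p = 3.59e-05), 0.37 (SE 0.078, adjusted p = 0.00378) and 0.32 (SE 0.069, adjusted p = 0.00564). *PIAS2*, a SUMO ligase of the pathway, was higher by 0.40 (SE 0.068, adjusted p = 0.000483). All 4 kept their call in the 15 other settings.

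Integrin adhesion genes, which tie the matrix to the cytoskeleton, had 5 higher and 1 lower of 36 measured (median 0.058). Beside *TLN1*, the integrin-linked kinase *ILK* read 10.08, 10.18 and 10.18 with FMR4 siRNA, against 9.78, 9.79 and 9.73 with CTRL siRNA. *ITGA5*, the fibronectin receptor's alpha chain, read 9.21, 9.29 and 9.20 with FMR4 siRNA, against 8.85, 8.89 and 8.90 with CTRL siRNA. Neither overlapped between the groups, and the differences were 0.38 (SE 0.067, adjusted p = 0.000703) and 0.36 (SE 0.071, adjusted p = 0.00272). *LIMS1*, which binds *ILK*, was the lower one (−0.26, SE 0.067, adjusted p = 0.0209), and it lost its call in 6 of the other settings, 5 of which left out an array (highest adjusted p = 0.098). *ITGA3*, higher by 0.20, lost its call in 8 settings (highest adjusted p = 0.209).

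Of 33 COPII genes, which bud vesicles from the endoplasmic reticulum, 5 were higher and 1, *ERGIC1*, was lower (median 0.059). *CNIH4*, a cargo receptor, read 12.26, 12.32 and 12.16 with FMR4 siRNA, against 11.92, 11.85 and 11.94 with CTRL siRNA, so that the difference was 0.34 (SE 0.065, adjusted p = 0.00144) with no overlap, while *SURF4* (0.28) and *SEC24B* (0.25) lost their calls without FMR4 siRNA replicate 2 and in a fit to the 6 arrays alone (highest adjusted p = 0.066 and 0.0734). Of 46 RAB GTPases, which give vesicles their identity, 6 were higher and 3 lower (median 0.029). *RAB15*, of recycling endosomes, read 9.33, 9.35 and 9.29 with FMR4 siRNA, against 8.57, 8.61 and 8.56 with CTRL siRNA. *RAB27A*, of secretory lysosomes and exosomes, read 7.41, 7.67 and 7.28 with FMR4 siRNA, against 6.95, 6.88 and 6.87 with CTRL siRNA. *RAB23*, a GTPase that restrains hedgehog signalling, read 9.52, 9.65 and 9.37 with FMR4 siRNA, against 10.09, 10.07 and 10.04 with CTRL siRNA. On every FMR4 siRNA array *RAB15* (0.74, SE 0.085, adjusted p = 3.99e-06) and *RAB27A* (0.55, SE 0.093, adjusted p = 0.000425) were higher and *RAB23* (−0.56, SE 0.097, adjusted p = 0.000645) was lower. *STX2*, a syntaxin of the plasma membrane, was higher by 0.69 (SE 0.073, adjusted p = 1.3e-06).

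The largest share of calls among the lists was in phosphoinositide enzymes, with 7 higher and 3 lower of 45 (22.2% of the list, median 0.051). *PLCE1*, a phospholipase C that responds to RAS, read 8.60, 8.76 and 8.64 with FMR4 siRNA, against 8.20, 7.91 and 8.19 with CTRL siRNA. *PLCB1*, its relative downstream of G proteins, read 8.36, 8.39 and 8.20 with FMR4 siRNA, against 9.16, 9.04 and 9.19 with CTRL siRNA. *PLCE1* was higher and *PLCB1* lower on all FMR4 siRNA arrays, with differences of 0.56 (SE 0.083, adjusted p = 8.56e-05) for *PLCE1* and −0.81 (SE 0.162, adjusted p = 0.00249) for *PLCB1*. Of the myotubularins on the list, phosphatases of endosomal phosphoinositides, *MTMR6* read 9.57, 9.65 and 9.43 with FMR4 siRNA, against 9.12, 8.96 and 9.26 with CTRL siRNA and *MTMR4* read 10.64, 10.75 and 10.53 with FMR4 siRNA, against 11.27, 11.18 and 11.24 with CTRL siRNA. *MTMR6* was higher by 0.44 (SE 0.071, adjusted p = 0.000299), *MTMR4* was lower (−0.59, SE 0.097, adjusted p = 0.000306), and neither overlapped. *MTMR1* was the third one called (0.23), and *MTMR14*, given above, is not on the list. *INPP5A*, which ends inositol trisphosphate signals, was higher by 0.33 (SE 0.058, adjusted p = 0.000644).

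The 69 genes of G proteins and second messengers had 6 higher and 5 lower (median 0.071). *ADCY9*, which makes cyclic AMP, read 9.20, 9.29 and 9.29 with FMR4 siRNA, against 8.75, 8.67 and 8.73 with CTRL siRNA. *PRKACB*, a catalytic subunit of the kinase it activates, read 9.70, 9.72 and 9.52 with FMR4 siRNA, against 10.34, 10.22 and 10.32 with CTRL siRNA. *PRKAR2A*, a regulatory subunit of that kinase, read 10.83, 10.85 and 10.80 with FMR4 siRNA, against 11.20, 11.17 and 11.12 with CTRL siRNA. *ADCY9* was the higher with FMR4 siRNA and both kinase subunits the lower, with no overlap and differences of 0.54 (SE 0.071, adjusted p = 2.23e-05), −0.65 (SE 0.07, adjusted p = 1.62e-06) and −0.34 (SE 0.054, adjusted p = 0.000223). *GNA13*, an alpha subunit of the G12 family, was higher by 0.38 (SE 0.057, adjusted p = 0.000125). The rest of the called genes were *ADCY1* and the phosphodiesterases *PDE3B*, *PDE5A* and *PDE4A*, which break down cyclic nucleotides, all higher, and *GNG4*, *RGS19* and *GNAO1*, all lower.

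RNA decay and microRNA genes, which shorten and silence messenger RNA, had 9 higher and 4 lower of 72 (median 0.058). *TNRC6A*, a GW182 protein that binds Argonaute, read 10.98, 11.06 and 10.98 with FMR4 siRNA, against 10.35, 10.22 and 10.31 with CTRL siRNA. *TNRC6B*, its paralog, read 9.18, 9.17 and 9.15 with FMR4 siRNA, against 9.85, 9.73 and 9.86 with CTRL siRNA. *TNRC6A* was higher on every FMR4 siRNA array and *TNRC6B* lower, with differences of 0.71 (SE 0.061, adjusted p = 5.75e-08) for *TNRC6A* and −0.64 (SE 0.078, adjusted p = 7.96e-06) for *TNRC6B*. Both were in opposite positions relative to the plasmid arrays, *TNRC6A* at 0.43 with FMR4 siRNA and −0.28 with CTRL siRNA, *TNRC6B* at −0.23 with FMR4 siRNA and 0.41 with CTRL siRNA. *CNOT3*, of the deadenylase that removes poly(A) tails, read 10.33, 10.47 and 10.62 with FMR4 siRNA, against 10.04, 9.87 and 10.10 with CTRL siRNA, higher by 0.47 (SE 0.068, adjusted p = 7.37e-05), and its partner *CNOT6* was higher by 0.34. *TARBP2*, which binds Dicer, was higher by 0.27 (SE 0.048, adjusted p = 0.00071). Nuclear transport genes, the pore and its carriers, had 7 higher and 3 lower of 54 (median 0.035). *NDC1*, which anchors the pore in the membrane, read 11.26, 11.30 and 11.16 with FMR4 siRNA, against 10.76, 10.77 and 10.72 with CTRL siRNA, and *IPO11*, an import receptor, read 10.99, 10.97 and 10.82 with FMR4 siRNA, against 10.52, 10.51 and 10.50 with CTRL siRNA. Neither overlapped, and the rises were 0.49 (SE 0.075, adjusted p = 0.00013) for *NDC1* and 0.41 (SE 0.072, adjusted p = 0.00065) for *IPO11*, while the pore protein *NUP54* was lower (−0.32, SE 0.058, adjusted p = 0.00108).

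Chromatin genes were called in both directions, as were the genes of 38 lists. Of all genes 5.88% were called, and 9.74% of those above the median level. Polycomb genes, which keep genes silent through histone H3 and H2A marks, had 4 higher and 1 lower of 30 (16.7%, median 0.079). *SUZ12*, a core subunit of Polycomb repressive complex 2, read 11.50, 11.54 and 11.35 with FMR4 siRNA, against 11.95, 11.87 and 11.92 with CTRL siRNA. *MTF2*, an accessory subunit of the same complex, averaged 10.99 ± 0.07 with FMR4 siRNA, against 10.64 ± 0.09 with CTRL siRNA (SD, n = 3 each). *RING1*, a ubiquitin ligase of Polycomb repressive complex 1, read 9.37, 9.48 and 9.40 with FMR4 siRNA, against 9.10, 9.14 and 9.05 with CTRL siRNA. *SUZ12* was lower (−0.45, SE 0.056, adjusted p = 1.22e-05), and *MTF2* (0.35, SE 0.06, adjusted p = 0.000575) and *RING1* (0.32, SE 0.064, adjusted p = 0.00243) were higher, on all FMR4 siRNA arrays. Of 92 histone methylation and acetylation genes 4 were higher and 4 lower (8.7%, below the share above the median level). The acetyltransferase *KAT2B* (0.56, SE 0.074, adjusted p = 2.76e-05) and the demethylase *KDM1A* (0.37, SE 0.056, adjusted p = 0.000112) were higher and *SINHCAF*, of a deacetylase complex, lower (−0.60, SE 0.075, adjusted p = 1.08e-05). *DNMT1*, the maintenance DNA methyltransferase and the single call of 16 DNA methylation genes (6.25%, near the share over all genes), was higher by 0.37 (SE 0.061, adjusted p = 0.0004).

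Growth pathways also had calls in both directions, which were mostly higher in TGF-beta and BMP genes and in cyclins and CDKs. Of 50 TGF-beta and BMP genes 5 were higher and 1 lower (median 0.070). *SMAD2*, which carries the TGF-beta signal to the nucleus, read 9.56, 9.63 and 9.39 with FMR4 siRNA, against 9.06, 8.95 and 9.06 with CTRL siRNA. *TGFBR1*, the receptor kinase upstream of it, read 10.11, 10.12 and 9.92 with FMR4 siRNA, against 9.65, 9.60 and 9.59 with CTRL siRNA. *BMPR2*, the BMP type II receptor, read 10.60, 10.71 and 10.41 with FMR4 siRNA, against 11.02, 10.91 and 11.08 with CTRL siRNA. The TGF-beta genes were higher, *SMAD2* by 0.50 (SE 0.071, adjusted p = 5.12e-05) and *TGFBR1* by 0.43 (SE 0.075, adjusted p = 0.000564), and *BMPR2* was lower (−0.43, SE 0.076, adjusted p = 0.000749), with no overlap. Hippo genes, which restrain the coactivator YAP, had 3 higher and 3 lower of 37 (median 0.082). *TEAD1*, the DNA-binding partner of YAP, read 10.28, 10.37 and 10.29 with FMR4 siRNA, against 9.91, 9.82 and 9.99 with CTRL siRNA, higher by 0.40 (SE 0.067, adjusted p = 0.000367). *MOB1A*, a cofactor of the LATS kinases, read 10.76, 10.68 and 10.34 with FMR4 siRNA, against 11.29, 11.17 and 11.26 with CTRL siRNA, and was lower (−0.64, SE 0.096, adjusted p = 0.000106). Of the other Hippo calls, *YAP1* itself and *CRIM1*, listed as a YAP target, were lower, and *VGLL4* and *PTPN14* higher. Of 53 cyclins and CDKs 6 were higher, *CDK14* by 0.66 (SE 0.084, adjusted p = 1.86e-05), and 1 was lower.

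The calls of 5 stress-related lists were in 1 direction each, but with 2 to 4 calls a list a shared direction means little. Over all genes 5.88% were called, and 9.74% of genes above the median level. The NF-kB and oxidative stress lists were near the first of these shares and the ER folding list near the second. ER folding genes had 4 higher and none lower of 40 (10% of the list, median 0.103), with *HYOU1* (0.30), *DERL3* (0.50) and *DERL1* (0.20) beside *DNAJB9*. The amino acid and integrated stress response list had 4 higher of 33 (12.1%, median 0.125), the transcription factor *CEBPB* (0.33), the amino acid carriers *SLC7A5* (0.25) and *SLC1A5* (0.20), and *VLDLR* (0.37). All 8 genes of these 2 lists lost the call without CTRL siRNA replicate 2, with a highest adjusted p between 0.0595 and 0.437 over the settings. That array was the lowest of its group in *DNAJB9*, at 8.51 against 9.05 and 9.23 on the other CTRL siRNA arrays. Heat shock genes had 4 higher of 32 (12.5%, median 0.034), *DNAJC7* (0.35), called in every setting, and *BAG5* (0.28), *HSPA12A* (0.28) and *DNAJB5* (0.23), which lost their calls in 1, 4 and 4 settings (highest adjusted p = 0.0513, 0.0866 and 0.121). The NF-kB list had 2 lower of 33 (6.06%), *RELA*, the p65 subunit, at 9.72, 9.98 and 10.02 with FMR4 siRNA, against 10.38, 10.26 and 10.49 with CTRL siRNA without overlap (−0.47, SE 0.079, adjusted p = 0.000443), and *IKBKG* (−0.33), whose call was lost in 4 settings, each without 1 array (highest adjusted p = 0.129). The list of oxidative stress genes had 2 lower of 30 (6.67%), *GCLM*, of glutathione synthesis (−0.49, SE 0.099, adjusted p = 0.00259), and *NQO1* (−0.45), whose call was lost in 5 settings, each without 1 array (highest adjusted p = 0.151). Interferon and RNA sensing genes, of which 17 of 55 were dim, had 5.45% called. There were 2 higher, *IFIT5* (0.38) and *TAP1* (0.35), and 1 lower, *USP18* (−0.43), and the 2 higher ones each lost the call in 2 settings (highest adjusted p = 0.099 and 0.0985).

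Synaptic genes, of which HEK293T cells express a part, had 1 higher and 4 lower of 58 measured (8.62%), and 13 of the 58 were dim. Over all genes 5.88% were called, and 9.74% of those above the median level. The lists in this paragraph were near or below these shares, so their calls are given as single genes. *SV2A*, a synaptic vesicle protein, read 8.87, 8.84 and 8.82 with FMR4 siRNA, against 9.45, 9.31 and 9.36 with CTRL siRNA. *BSN*, bassoon, a scaffold of the presynaptic active zone, read 7.53, 7.56 and 7.64 with FMR4 siRNA, against 7.80, 7.91 and 7.93 with CTRL siRNA. Both were lower without overlap, with differences of −0.53 (SE 0.094, adjusted p = 0.000793) for *SV2A* and −0.30 (SE 0.065, adjusted p = 0.00509) for *BSN*, and both kept their call in all settings, while *SYP* (−0.38), *UNC13A* (−0.28) and the higher *VAMP1* (0.39) did not. Of 25 neural precursor factors only *MSI2* (4% of the list), an RNA-binding protein of stem cells, was called (−0.35, SE 0.073, adjusted p = 0.00445). *G3BP2*, a stress granule protein, was the single call of 12 fragile X proteins and partners (8.33%), at 11.68, 11.63 and 11.57 with FMR4 siRNA, against 11.31, 11.26 and 11.29 with CTRL siRNA, higher by 0.34 (SE 0.054, adjusted p = 0.000199). Of 19 measured neighbours of *FMR1* in Xq27 to Xq28, *VMA21* was lower and *MTMR1* (0.23) higher (10.5% of the list), and *MTMR1* lost its call in 5 settings (highest adjusted p = 0.143).

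**Figure D4:**
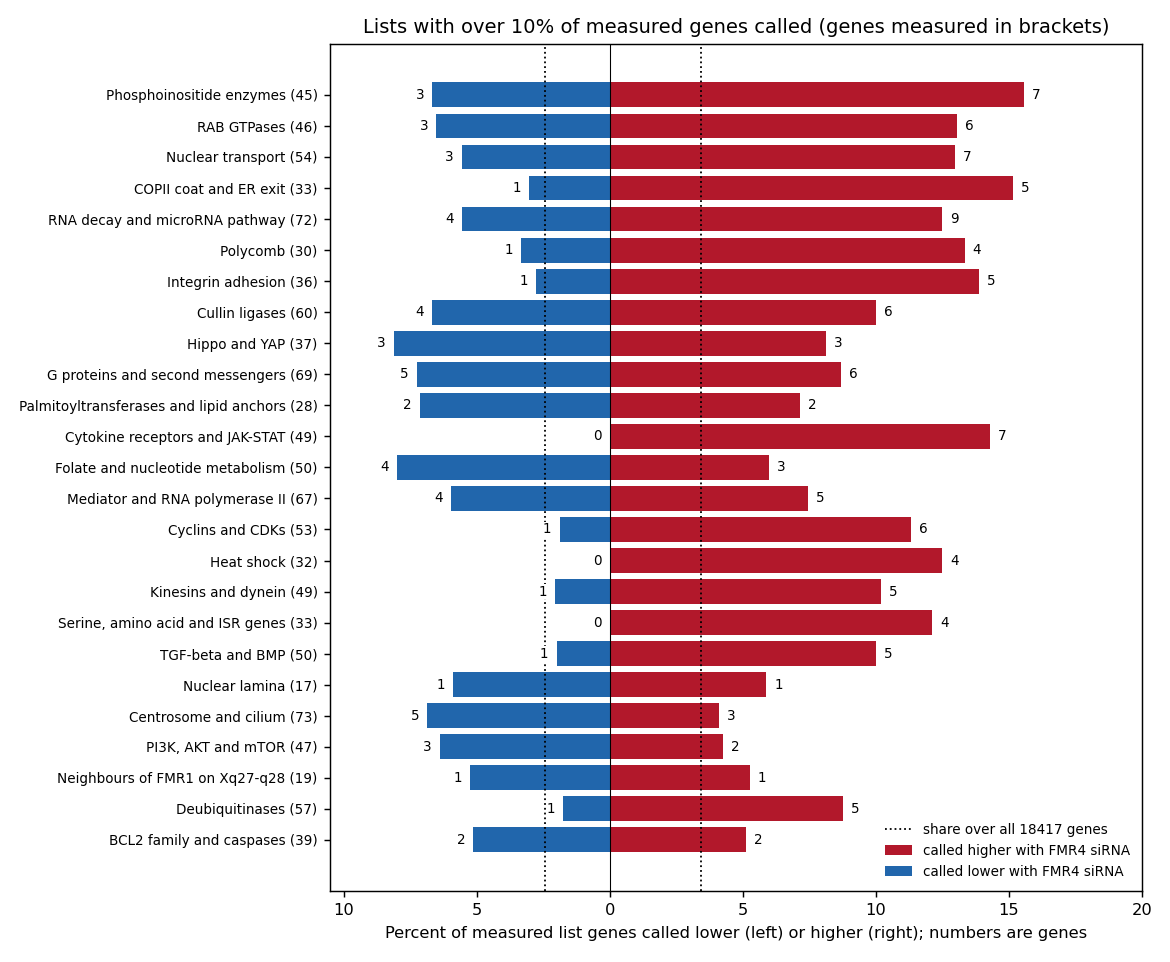
Bars give, for 25 of the 26 lists with at least 10 measured genes and over 10% called (1 is not reported here), the percent of measured genes called higher (red, to the right) and lower (blue, to the left) with FMR4 siRNA, with the number of genes at the bar's end. Dotted lines mark the shares over all 18417 genes, 3.43% higher and 2.45% lower. The lists were picked by their share, and 9.74% of genes above the median level were called.

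Several large families stayed near or below the background of 5.88%. Zinc finger genes had 24 of 480 called (14 higher, 10 lower) and solute carriers 24 of 374 (15 higher, 9 lower). Cytosolic ribosomal protein genes had 1 of 64 called, complex I subunits 0 of 33, histones 0 of 68, microRNA genes 0 of 189 and olfactory receptors 2 of 361. Histone, microRNA and olfactory receptor probe sets are often dim or read several copies, so few calls there need not mean little change.

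Genes chosen by their 24 h difference mostly differed less at 6 h, which such a choice favours by itself. In the same fit, limma called 11 genes at 6 h. FMR4 siRNA replicate 3 of 6 h read apart from replicates 1 and 2 in some named genes. In replicate order, these arrays gave 8.68, 8.98 and 9.78 for *PLCB1*, 10.39, 10.48 and 10.93 for *EMP2*, and 8.46, 8.08 and 7.25 for *KIAA1107*. In others they were close, as in *RPA1* (10.31, 10.29 and 10.28). The part of that array in the 6 h differences was not tested. The 59 genes at least 1.5-fold higher at 24 h had a median difference of 0.72 at 24 h and 0.16 at 6 h, and 55 of them were already positive at 6 h. The 52 lower genes had medians of −0.70 at 24 h and −0.17 at 6 h, and 49 were already negative. The FMR4 siRNA and CTRL siRNA arrays of 6 h are separate from those of 24 h, so these signs are not fixed by the choice of genes. Over all called genes, which are smaller in effect, 393 of 632 higher and 365 of 451 lower genes had the same sign at 6 h, with medians of 0.02 and −0.07. Most gene lists had a slightly negative median at 6 h, such as −0.024 for COPII genes. The share of all genes with each sign at 6 h was not counted, so these counts of signs have no background. The 24 h difference itself departed from the 6 h difference in 218 genes (1.18%), more positive in 132 and more negative in 86, and 211 of these were called at 24 h. That count depended on the fit: 31 genes, all among the 218, were called in a fit to the 12 siRNA arrays alone, 984 with array weights, and 133 and 141 without CTRL siRNA replicate 2 and replicate 3 of 24 h. Of the 59 and 52 large changes, 40 and 32 were among the 218. The choice of these genes and the test of change use the same 24 h arrays, so this overlap is no separate evidence. *NKAIN1* differed by 0.88 at 24 h and −0.04 at 6 h, a change of 0.92 (SE 0.112, adjusted p = 0.00014), and *ALDH7A1* by −0.79 at 24 h and 0.01 at 6 h, a change of −0.80 (SE 0.107, adjusted p = 0.00033). Others were partly present at 6 h: *KMT5A* had a difference of −0.88 at 24 h and −0.43 at 6 h (adjusted p = 0.0121), and *TNRC6A* 0.71 at 24 h and 0.40 at 6 h (adjusted p = 0.00561), where the change between times did not pass (adjusted p = 0.0954).

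**Figure D5:**
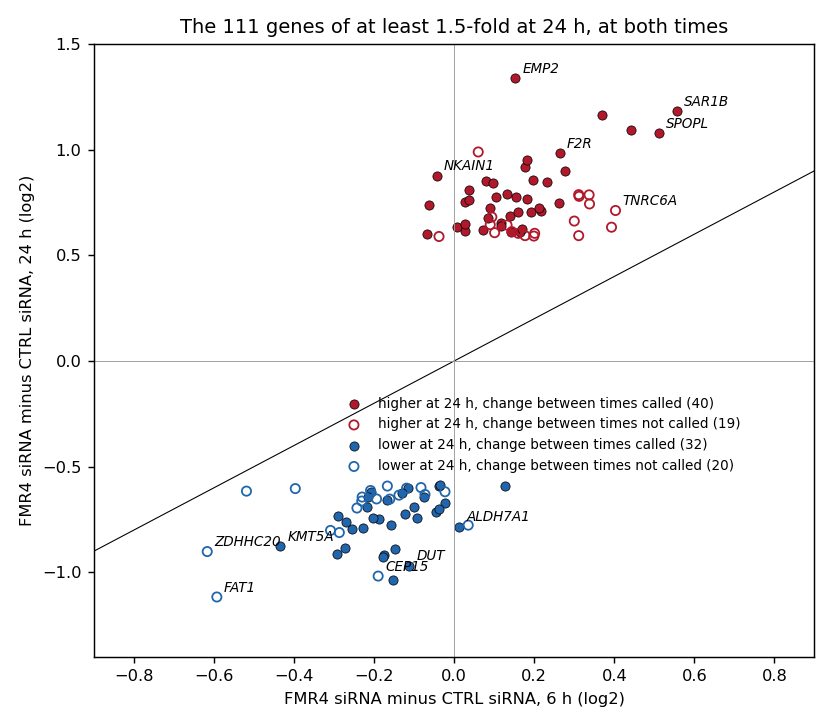
The 111 genes of at least 1.5-fold at 24 h, with the log2 difference FMR4 siRNA minus CTRL siRNA at 6 h on the x axis and at 24 h on the y axis. Filled points are the 40 higher (red) and 32 lower (blue) genes whose difference changed between the times and open points those whose change did not pass, and the diagonal line marks equal differences at both times. The genes were chosen by their 24 h difference, which also enters the test of change.

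Overexpression of FMR4 was compared on separate arrays. FMR4 pcDNA3.1 against CTRL pcDNA3.1 at 24 h had 0 genes called by limma and 602 at an unadjusted p under 0.05. The 59 higher genes ranged from −0.23 to 0.11 in that comparison, 49 of them negative, and the 52 lower genes from −0.19 to 0.16, 46 of them negative too. Over all genes 64.1% were negative there, with a median of −0.03.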

How the data were processed

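HEK293T RNA was hybridised to Affymetrix Human Gene ST arrays, given as version 1.0 in the sample labels and 2.0 in the study's methods. The authors deposited log2 expression, normalized by GC-RMA after subtracting background (versions not given in the sources used here). The table had 33297 probe sets, of which 21214 had a gene in the probe annotation and 1754 of these several symbols. For the 769 genes with more than 1 probe set of a single symbol, the one of highest mean was used. Symbols are those of the annotation.

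Each of the 8 conditions was given a mean in 1 limma fit (limma 3.58.1, R 4.3.3) over the 24 arrays, with 16 residual degrees of freedom. Tests were two-sided, with Benjamini-Hochberg adjustment over the 21214 named probe sets and a threshold of 0.05, and were tested on simulated data. The dim floor was taken from 454 olfactory receptor and keratin-associated probe sets. The number of arrays limits the precision. Plots were made in matplotlib (version 3.10.9; Python 3.11.15).

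The genes named are the 20 largest rises and 20 largest falls called without overlap, up to 5 called genes of lowest adjusted p in each list, and the genes that the study measured by PCR. The rest of the called G protein genes and *YAP1* were named after their values were seen. The members and lists were chosen with earlier results of these data known. The replicate numbers were not taken to pair the arrays, because no pairing is stated. Same-number correlations of deviations were 0.08, −0.38 and −0.16, and those of unlike numbers ran from −0.31 to 0.38. With 3 arrays a group these values cannot settle whether the arrays were paired. The other settings were fits to fewer arrays, trend and robust moderation, array weights, quantile normalization and centring of each array on its median. Further settings left out dim probe sets, took the mean over probe sets or used a replicate block. The rest left out each of the compared siRNA arrays in turn, and no array of the earlier time. Counts relative to 1 plasmid group or after median centring were added after seeing the data. The values of 1 list are not reported here.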

Additional observations from a re-analysis of the deposited data

Results flagged for a closer look

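The difference between FMR4 siRNA and CTRL siRNA changed between 6 and 24 h in 218 genes by limma's test of that change. Those named in the text with their values are given here by the 24 h difference minus the 6 h difference on the log2 scale. Only 31 genes, all among the 218, were called in a fit to the 12 siRNA arrays alone, 133 without CTRL siRNA replicate 2 of 24 h and 141 without CTRL siRNA replicate 3. The named genes among the 31 were *EMP2*, *F2R*, *LSM14A*, *NKAIN1*, *RAB15*, *RDX*, *SNRNP27*, *TLN1* and *YWHAH*, more positive, and *ALDH7A1*, *ARHGAP1*, *DUT*, *ERGIC1*, *GGPS1*, *RPA1*, *SHMT1* and *VMA21*, more negative. Both differences came from separate arrays, and the groups of 3 were too small for a test of single outlying arrays. In some named genes, such as *EMP2*, FMR4 siRNA replicate 3 of 6 h read apart from replicates 1 and 2. No explanation was tested for any of these changes.

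Genes of adhesion, receptors and the cytoskeleton that became more positive were *EMP2* (1.18), *F2R* (0.72), *IL6ST* (0.79), *IL6R* (0.45), *TLN1* (0.77), *ILK* (0.40), *ITGA5* (0.41), *RDX* (0.77) and the neurofilament gene *NEFM* (0.72). Genes of vesicle traffic and of the ubiquitin system were *SAR1B* (0.62), *SCAMP1* (0.65), *STX2* (0.55), *CNIH4* (0.43), *RAB15* (0.80), *VAMP1* (0.56), *SPOPL* (0.57), *KLHL2* (0.66) and *USP31* (0.62). In signalling and ion transport the change was positive for *YWHAH* (0.62), *ADCY9* (0.57), *GNA13* (0.40), *PLCE1* (0.57), *INPP5A* (0.37), *CDK14* (0.54), *NKAIN1* (0.92), *ATP1B1* (0.77) and *SLC41A1* (0.62). RNA and chromatin genes that became more positive were *LSM14A* (0.66), *SNRNP27* (0.74), *THG1L* (0.74), *CNOT3* (0.45), *TARBP2* (0.37), *KAT2B* (0.59), *KDM1A* (0.40) and *RING1* (0.42). All of these were called higher at 24 h.

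Genes that became more negative were, in nucleotide, DNA and chromatin metabolism, *DUT* (−0.86), *SHMT1* (−0.75), *RPA1* (−0.74), *KMT5A* (−0.44) and *SUZ12* (−0.37). In membranes and their lipids they were *GGPS1* (−0.88), *VMA21* (−0.74), *ERGIC1* (−0.61), *ATP7A* (−0.56), *NEU1* (−0.49) and *MTMR14* (−0.54). In signalling and other roles they were *ARHGAP1* (−0.62), *PRKACB* (−0.43), *BMPR2* (−0.45), *MOB1A* (−0.57), *APAF1* (−0.56), *ALDH7A1* (−0.80) and *DESI2* (−0.61). All of these were called lower at 24 h, and *EMP2* and *GGPS1* had the widest change among the named genes in either direction.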

How the results depend on the processing

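The 1083 genes called at 24 h became 1656 (720 lower) with array weights and 604 (341 higher, 263 lower) at an adjusted p under 0.01. With 1 array left out the count lay between 653 and 1001, that of higher genes between 329 and 679 and that of lower genes between 308 and 417; the lowest total was without CTRL siRNA replicate 2, and higher genes numbered 334 without FMR4 siRNA replicate 2. The 218 genes whose difference changed between times became 31 in a fit to the 12 siRNA arrays, 984 with array weights and 79 at an adjusted p under 0.01. With 1 siRNA array of 24 h left out they became 133 to 186, including 133 and 141 without CTRL siRNA replicate 2 and replicate 3. Every fit with 1 array left out dropped an siRNA array of 24 h. No array of the earlier time was left out, so how far the 218 rest on any single one of those was not tested. The 111 genes of at least 1.5-fold stayed within 1.5 times of that count in every setting run. With the replicate number as a block, which the correlations give no ground to treat as pairing, 941 genes were called at 24 h and 119 between times. Over the 244 genes named by rule and 15 settings, 422 of 3660 results lost their call, and 142 of the 237 called genes lost none. The 3660 include the PCR genes, which were not called and had no call to lose. *GAPDH*, not called, changed sign to −0.02 with median centring, and lay between −0.02 and 0.02 with 1 array left out. Against the CTRL pcDNA3.1 or FMR4 pcDNA3.1 arrays alone, or after median centring, the CTRL siRNA mean was the farther in 51, 49 and 49 of the 59 large rises and in 3, 5 and 5 of the 52 large falls. The cause of these shifts was not tested.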
